A study of Homo sapiens with 35 samples.

Results

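Gene expression after 24 h of all-trans retinoic acid (ATRA) was compared with that after 24 h of the vehicle DMSO in BE(2)-C cells, across all genes measured. BE(2)-C is an established human neuroblastoma cell line with extra copies of MYCN, and it is classed as intermediate between neuroblast-like and flat, substrate-adherent neuroblastoma cells. The comparison uses 6 of the 35 arrays of the series, chosen by their titles: 3 of cells given ATRA at 5 uM for 24 h and 3 of cells given DMSO for 24 h. All were grown in DMEM with fetal bovine serum, antibiotics and glutamine. The other 29 arrays cover ATRA, valproic acid at 1 mM, both agents together or DMSO at 6 h, 24 h and 72 h. Total RNA was labelled with biotin from an oligo-dT primer and hybridised to Affymetrix arrays that read a short stretch near the 3' end of most transcripts. Values are intensities on a linear scale after RMA, the authors' normalization, and 11940 genes were tested, each by its brightest probe set. The labels describe triplicate treatment and do not say whether the replicates came from separate cultures. Each p-value therefore measures only the spread between arrays of one group, pooled over all 35 arrays of the series.

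Retinoic acid enters cells, is carried by CRABP proteins to the nucleus and binds retinoic acid receptors, which sit on DNA as pairs with retinoid X receptors. Binding exchanges corepressors for coactivators at direct repeats of a short half-site, and early targets include the HOX clusters and the CYP26 enzymes that destroy the ligand. In sympathetic neuroblasts ATRA is known for slowing division and for bringing cells to extend neurites, and it is used against neuroblastoma for that reason.

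DMSO 24 h replicate 1 stood apart from the other arrays. Its median intensity was 43.6 against 53.2 to 58.9 in the other 34 arrays, and 218 genes lay lower than in its group mates, on average, by 1 log2 unit or more, against at most 56 in any other array. Most counts of calls are therefore also given without it, and genes named as changed also passed without it unless stated. The log2 ratio of 3' to 5' signal of control transcripts, a sign of RNA and labelling quality, was 1.05 ± 0.26 (SD, n = 3) with DMSO and 0.89 ± 0.36 with ATRA. Of the sympathetic neuroblast markers 16 of 17 lay above the median of the 6 arrays, 52.0, and HAND2 lay below it. All 13 haematopoietic markers, 11 of 14 Schwann and glial markers with SOX10 and S100B among them, and 13 of 14 epithelial markers lay below that median. Mesenchymal markers differed: only 5 of 16 lay below it, and VIM was the brightest of that list. An array measures a population, so fewer cells of a type and less RNA per cell cannot be told apart in any result here.

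In all, 2213 genes passed an adjusted p of 0.05 in limma's test (Benjamini-Hochberg over all genes). Of these 1493 were higher with ATRA, 12.5% of the genes tested, and 720 were lower, 6.03%. Without DMSO 24 h replicate 1 the counts were 850 and 808, of which 843 and 581 were among the calls from all arrays. The spread was estimated from all 35 arrays, and a fit of only the 6 arrays gave 500 higher and 218 lower. A second quantile normalization of the deposited values gave 1063 higher and 1198 lower, so the balance of small rises and falls moves with the scaling. The larger changes leaned to rises: 208 genes were at least 2-fold higher and 28 at least 2-fold lower. Each of these 236 passed without DMSO 24 h replicate 1 and had 3 ATRA arrays on one side of the 3 DMSO arrays. Fold sizes here come from all arrays and were not recounted without that array. At 4-fold the counts were 34 and 1, and at 8-fold 11 and 0. The 3 ATRA arrays lay above all 3 DMSO arrays in 2017 genes, 16.9% of those tested, and below them in 1213, 10.2%, and each separation of groups given here is read against those shares. For the 15 largest rises and 15 largest falls separation was a condition of the choice, so it is no finding there. Counts of called list members are read against 12.5% and 6.03%, or without DMSO 24 h replicate 1 against 850 and 808 of 11940. The median log2 change over all genes was 0.03, or -0.01 without that array.

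The genes with the largest rises held a serotonin receptor, a kinase, retinoid genes and ERK-responsive genes. The 15 largest rises were chosen among genes whose groups did not overlap, so their separation is no finding. In the order DMSO replicates 1 to 3, then ATRA replicates 1 to 3, HTR2B read 39.7, 57.7 and 52.1 with DMSO and 1232, 1016 and 1292 with ATRA. HTR2B is a serotonin receptor coupled to Gq, and its log2 change was 4.55 ± 0.14 (SE, n = 3 per group, adjusted p = 1.9e-20). PRKCH, the eta form of protein kinase C, read 37.5, 54.0 and 43.4 with DMSO and 911, 877 and 1084 with ATRA (log2 change 4.39 ± 0.13, adjusted p = 1.9e-20). PTPRH, a receptor-type tyrosine phosphatase, read 27.3, 55.3 and 51.0 with DMSO and 635, 477 and 515 with ATRA (3.63 ± 0.19). In all 3 genes the ATRA arrays lay far above every DMSO array, and DMSO replicate 1 was the lowest of the DMSO arrays. PRKCH has 2 probe sets, whose mean gave a log2 change of 3.13. AQP3, a water and glycerol channel, read 27.7, 33.1 and 36.5 with DMSO and 382, 445 and 395 with ATRA, so the groups were again fully separate, but averaging its 3 probe sets gave 1.73 in place of 3.62 ± 0.15. PLEKHA6, which carries a lipid-binding pleckstrin homology domain, changed by 3.01 ± 0.15, and PLK2, a polo-like kinase, by 2.65 ± 0.11. KRT19, an intermediate filament protein typical of epithelia, read 52.3, 89.3 and 104 with DMSO and 488, 344 and 536 with ATRA (2.49 ± 0.20) and was the 1 epithelial marker above the array median. The 14 epithelial markers summed to 353.5 to 397.4 in the DMSO arrays and 685.2 to 855.5 in the ATRA arrays. Without KRT19 the other 13 summed to 286.6 to 308.1 and 319.3 to 341.0, so most of that difference was KRT19. Of the 14 markers 4 rose, and 1, KRT19, without DMSO 24 h replicate 1.

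KCTD12, an auxiliary subunit of GABA-B receptors, fell the most and was the 1 gene lower by over 4-fold. It read 619.6, 712 and 656 with DMSO and 101, 92.3 and 91.2 with ATRA (log2 change -2.79 ± 0.10, adjusted p = 1.3e-18), and the groups did not overlap. PLPPR4, a membrane protein of the lipid phosphatase family found in neurons, read 819.9, 931 and 905 with DMSO and 298, 286 and 316 with ATRA (-1.56 ± 0.08). SLC1A3, a transporter that clears glutamate, read 112, 129.9 and 141 with DMSO and 49.9, 36.7 and 35.0 with ATRA (-1.64 ± 0.13). CTSV, a lysosomal cysteine protease, read 463, 509 and 489 with DMSO and 141, 154 and 197 with ATRA (-1.58 ± 0.10). The 3 ATRA arrays of these genes were the lowest 3 of the 6. Every gene of this paragraph was chosen among genes with separate groups, so that separation is no finding. KCNG1, a potassium channel subunit that modifies other channels, changed by -1.74 ± 0.15, or -1.03 by averaging its 2 probe sets. ZFPM2, a cofactor of GATA factors, changed by -1.48 ± 0.18 and the secreted protein NELL1 by -1.34 ± 0.17; both were dim, and a pseudocount of 32 in place of 1 gave -0.86 and -0.77. IGFBP5, which binds insulin-like growth factors, read 2551, 2645 and 2579 with DMSO and 788, 888 and 943 with ATRA, with no overlap (-1.57 ± 0.10, or -0.82 by averaging 5 probe sets). MINAR1, a regulator of Notch signalling, changed by -1.44 ± 0.15, and ELMO1, which helps activate the GTPase Rac, by -1.30 ± 0.12.

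**Figure D1:**
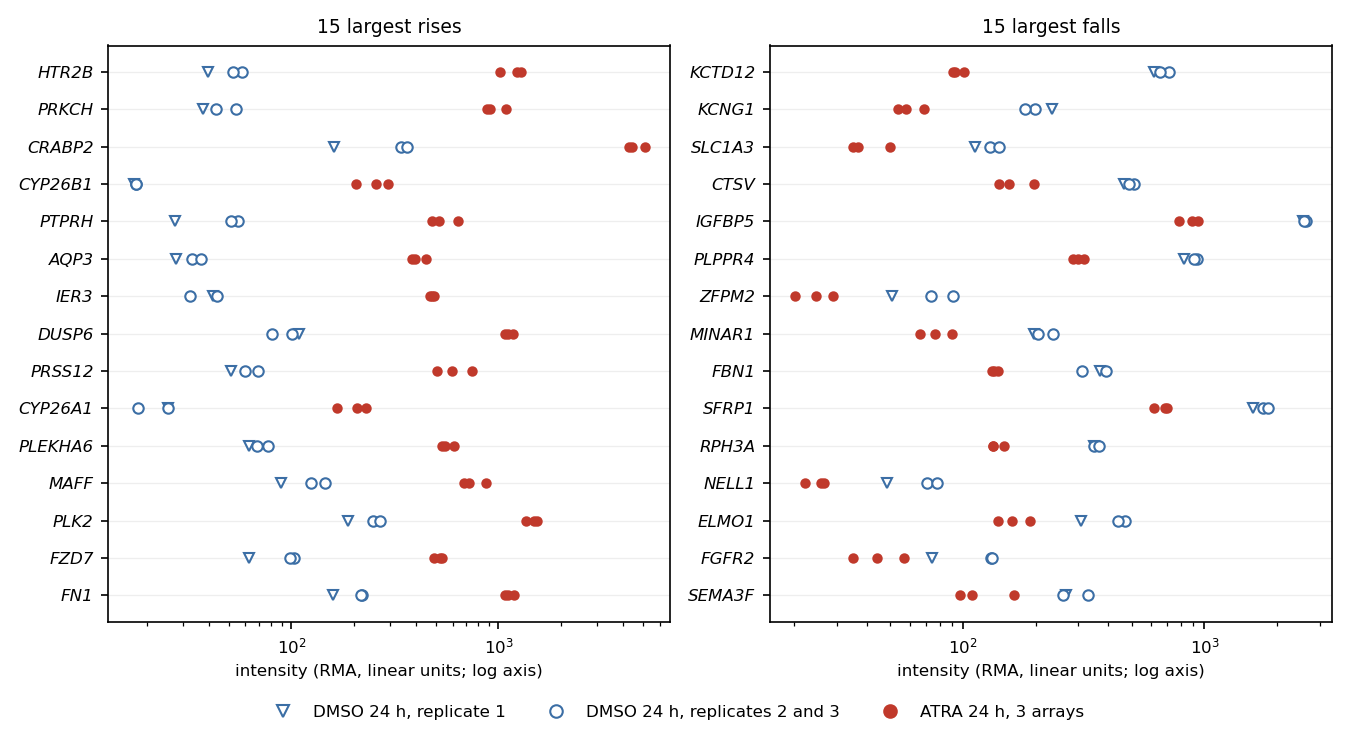
Intensity (RMA, linear units on a log axis) in each of the 6 arrays for the 15 largest rises and 15 largest falls; each symbol is 1 array, with DMSO 24 h replicate 1 as a triangle. The genes were chosen among those whose 3 ATRA arrays lie on one side of the 3 DMSO arrays, so that separation is no finding. Their log2 changes run from 2.52 to 4.55 for the rises and from -2.79 to -1.23 for the falls.

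Among genes that bind, make and break down retinoic acid, the largest rises were in a carrier and in enzymes of breakdown. Of 23 measured members 6 rose, 1 fell and 16 did not pass, and the counts were the same without DMSO 24 h replicate 1. The median log2 change of the list was 0.03, as over all genes. CRABP2, the carrier that delivers retinoic acid to its receptor, read 161, 337 and 361 with DMSO and 5083, 4249 and 4426 with ATRA. DMSO replicate 1 was well below the other DMSO arrays, and without it the log2 change of 4.08 ± 0.17 became 3.71. CYP26B1, which oxidises retinoic acid, read 17.3, 17.8 and 17.7 with DMSO and 206, 258 and 292 with ATRA (log2 change 3.75 ± 0.14, adjusted p = 1.3e-18). Its relative CYP26A1 read 25.4, 25.4 and 18.1 with DMSO and 166, 230.0 and 208 with ATRA (3.08 ± 0.17, adjusted p = 2.1e-14). Both enzymes were at or near the lower quartile of the arrays with DMSO and clear of it in every ATRA array. DHRS3, which reduces retinal back to retinol, read 35.5, 28.6 and 31.8 with DMSO and 76.4, 68.4 and 50.6 with ATRA, so the groups did not overlap (0.99 ± 0.19, or 0.60 with a pseudocount of 32). STRA6, the membrane receptor through which retinol enters cells, read 492, 535 and 552 with DMSO and 748, 792 and 776 with ATRA (0.55 ± 0.10, adjusted p = 2.5e-04). Of the enzymes that make retinoic acid from retinal, ALDH1A3 rose by 0.59 ± 0.14 (adjusted p = 0.0029), a call lost by averaging its 2 probe sets (0.21, adjusted p = 0.13). ALDH1A1 had a log2 change of -0.10 and ALDH1A2 of 0.13, both below the array median and not passing. FABP5, a lipid carrier that can take retinoic acid to PPARD, read 4199, 4382 and 4516 with DMSO and 3480, 3702 and 3390 with ATRA, with every ATRA array below every DMSO array (-0.31 ± 0.07, adjusted p = 0.0018).

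**Figure D2:**
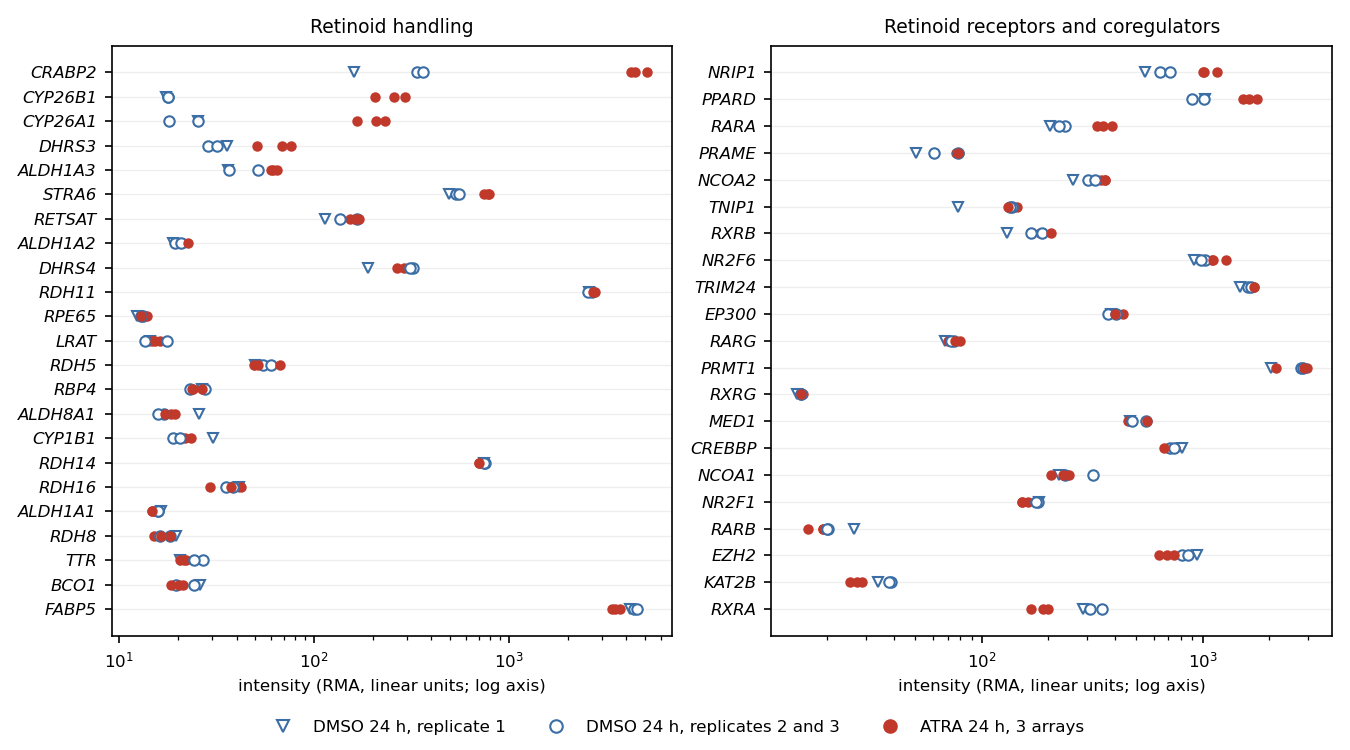
Intensity (RMA, linear units on a log axis) in each of the 6 arrays for every measured gene of retinoid handling (left, 23 genes) and of retinoid receptors and coregulators (right, 21 genes), in order of log2 change. CRABP2, CYP26B1 and CYP26A1 are separated by far more than the spread of the replicates, while 6 of the 21 receptors and coregulators lie fully above and 5 fully below their DMSO arrays, by smaller distances. Over all genes tested 16.9% lay fully above and 10.2% fully below.

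Promoters of the genes that rose were searched for the retinoic acid response element, to show where such a repeat lies. The search took direct repeats of the half-site AGGTCA, its variants AGTTCA and also GGGTCA, or the form GGTTCA that joins both changes, spaced by 1, 2 or 5 bases on either strand, in RefSeq promoters of build GRCh38.p14 (250 bases before to 50 after the start). Of the 146 named rises 116 had 193 promoters in that table, and 2 promoters, of 2 genes, held such a repeat (1.04%). Of the 1977 promoters of all genes that rose 4 held one (0.202%), of the 14136 promoters of genes tested 38 (0.269%) and of all 35116 promoters listed 91 (0.259%). CYP26A1 has a repeat with a spacing of 5 on the reverse strand, which shows as a repeat of TGAACT in the strand of the gene, from base 90 to base 74 before the start (chr10:93073643-93073942, plus strand). RIT1, a small GTPase of the Ras family, has one with a spacing of 1 that ends at the start base (chr1:155911300-155911599, minus strand). The half-sites are in capitals:
CYP26A1: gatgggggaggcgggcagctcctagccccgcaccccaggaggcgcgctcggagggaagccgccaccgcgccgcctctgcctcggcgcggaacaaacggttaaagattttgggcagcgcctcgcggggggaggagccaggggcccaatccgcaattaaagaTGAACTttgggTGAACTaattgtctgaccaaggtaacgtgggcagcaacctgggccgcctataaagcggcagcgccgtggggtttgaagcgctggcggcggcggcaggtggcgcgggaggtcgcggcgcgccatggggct
RIT1: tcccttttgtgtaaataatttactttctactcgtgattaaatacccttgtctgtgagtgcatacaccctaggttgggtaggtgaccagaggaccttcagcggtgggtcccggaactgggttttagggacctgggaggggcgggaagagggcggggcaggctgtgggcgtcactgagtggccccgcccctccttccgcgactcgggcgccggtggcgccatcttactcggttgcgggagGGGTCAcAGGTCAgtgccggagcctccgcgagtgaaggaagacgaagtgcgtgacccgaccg
RIT1 read 66.6, 63.8 and 67.1 with DMSO and 154, 129 and 152 with ATRA (log2 change 1.12 ± 0.16, adjusted p = 6.8e-06), and its groups did not overlap. A match describes the letters and is not a measured binding site, and a promoter without a match says only that these letters are not in this window.

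Among the receptors themselves the changes were small. Of 21 measured receptors and coregulators 3 rose and 2 fell, or 3 and 1 without DMSO 24 h replicate 1 and 3 and 4 after a second quantile normalization. From all arrays that was 14.3% and 9.52%, against 12.5% and 6.03% of all genes. RARA, the alpha retinoic acid receptor, read 204, 238 and 225 with DMSO and 331, 354 and 391 with ATRA (log2 change 0.69 ± 0.10, adjusted p = 3.2e-06). RARB read 26.4, 20.1 and 19.8 with DMSO and 19.1, 19.1 and 16.3 with ATRA (-0.26 ± 0.10, adjusted p = 0.077), and RARG changed by 0.06. RARB was dim in both groups, and its ATRA arrays, though lower than every DMSO array, did not pass the test. RXRA, the partner of these receptors, read 287, 350.9 and 309.6 with DMSO and 166, 199 and 190.1 with ATRA, with every ATRA array below every DMSO array (-0.77 ± 0.15, adjusted p = 4.6e-04). The call of RXRA was lost by averaging its 2 probe sets (-0.22, adjusted p = 0.15). RXRB and RXRG, with log2 changes of 0.26 and 0.03, did not pass. NRIP1, a corepressor that binds liganded receptors, read 548, 640.5 and 709.9 with DMSO and 1002, 1012 and 1159 with ATRA (0.74 ± 0.09, adjusted p = 6.0e-07). PPARD, a nuclear receptor for fatty acids, changed by 0.73 ± 0.11. Every ATRA array of both genes lay above every DMSO array. EZH2, a histone methyltransferase, changed by -0.34, a call lost without DMSO replicate 1 (adjusted p = 0.076), without ATRA replicate 1 and by averaging its probe sets (adjusted p = 0.29).

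HOX genes, which give cells their position along the body axis, and the TALE factors that bind DNA with them had 11 rises and 1 fall among 32 measured members (8 and 1 without DMSO 24 h replicate 1). The median log2 change of the list was 0.20. The largest changes were in the HOXD cluster. HOXD4 read 47.8, 41.2 and 51.0 with DMSO and 154, 183 and 156 with ATRA (log2 change 1.80 ± 0.13, adjusted p = 4.1e-12). HOXD3 read 93.4, 99.2 and 113 with DMSO and 174, 216 and 182 with ATRA (0.90 ± 0.12, or 0.41 by averaging its 3 probe sets). In both the ATRA arrays were the highest 3. HOXD1 changed by 1.22 ± 0.15 and HOXD9 by 1.11 ± 0.18, or by 0.57 and 0.50 as means of their 2 probe sets each. MEIS1, a TALE partner of HOX proteins, read 227, 242 and 239 with DMSO and 450.0, 488 and 451 with ATRA (0.97 ± 0.11, adjusted p = 4.8e-08), and PBX3, another, changed by 0.70 ± 0.15, or 0.45 without DMSO replicate 1. The 1 fall was in HOXC13 (-0.43 ± 0.15), a call lost without DMSO replicate 2, without any single ATRA replicate and with a pseudocount of 32.

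RET, the receptor kinase for ligands of the GDNF family, led the growth factor receptors. It read 469, 691 and 723 with DMSO and 3047, 2851 and 3009 with ATRA (log2 change 2.27 ± 0.15, adjusted p = 5.2e-13), and each ATRA array was over 4 times as bright as the mean of the DMSO arrays. Its probe set can share signal with similar sequences. Of 45 measured receptors 12 rose and 1 fell (8 and 2 without DMSO 24 h replicate 1), with a median of 0.10. LTK, a receptor kinase close to ALK, rose by 1.23 ± 0.18, or 0.76 with a pseudocount of 32. EPHA2, a receptor for ephrins, read 34.2, 43.2 and 36.9 with DMSO and 101, 88.5 and 82.8 with ATRA (1.23 ± 0.15, or 0.81 with that pseudocount). IGF2R, which takes up IGF2 for breakdown, read 202, 358 and 419 with DMSO and 634, 586 and 664 with ATRA (1.00 ± 0.17). DMSO replicate 1 was the lowest array of IGF2R by a wide margin, and without it the change was 0.69. FGFR2, a fibroblast growth factor receptor, read 74.4, 131 and 132 with DMSO and 43.9, 56.7 and 35.0 with ATRA (-1.28 ± 0.20, adjusted p = 2.1e-05), with no overlap. The mean of its 7 probe sets gave -0.29, so the fall rests on the brightest of them.

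Genes that follow ERK kinase signalling, both immediate early genes and the inhibitors that ERK induces against itself, were the list with the largest share of rises. Of 41 measured members 21 rose and 0 fell, and 17 rose and 0 fell both without DMSO 24 h replicate 1 and after a second quantile normalization. The median was 0.30. DUSP6, a phosphatase that acts on ERK, read 109, 80.2 and 100.3 with DMSO and 1118, 1074 and 1171 with ATRA (log2 change 3.53 ± 0.12, adjusted p = 7.4e-19). IER3, an early response protein that prolongs ERK activity, read 41.7, 32.3 and 43.6 with DMSO and 487, 469.6 and 476 with ATRA (3.58 ± 0.14, adjusted p = 5.0e-18). EGR1, an early zinc finger transcription factor, read 389.5, 457 and 554 with DMSO and 1382, 1713 and 1675 with ATRA (1.78 ± 0.13, adjusted p = 1.7e-11). In these 3 genes the lowest ATRA array was more than 2 times the highest DMSO array. MAFF, a small Maf factor, changed by 2.67 ± 0.16, PHLDA1 by 2.07 ± 0.13 and IER2 by 1.38 ± 0.12. In each of these 3 as well every ATRA array was brighter than every DMSO array.

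Genes of protein kinase C, G protein and calcium signalling moved both ways, with 12 of 77 higher and 10 lower (11 and 7 without DMSO 24 h replicate 1, and 12 and 13 after a second quantile normalization). From all arrays that was 15.6% and 13.0%, against 12.5% and 6.03% of all genes. Without ATRA replicate 3 the falls numbered 6. Beside HTR2B, PRKCH and KCTD12, RGS16, which shortens G protein signals, read 1356, 1723 and 1678 with DMSO and 4683, 4645 and 4420 with ATRA (log2 change 1.54 ± 0.12, adjusted p = 9.6e-11). HTR2C, a second Gq-coupled serotonin receptor, read 126, 224 and 219 with DMSO and 372, 414 and 409.5 with ATRA (1.11 ± 0.14, or 0.84 without DMSO replicate 1). PRKD2, a kinase downstream of protein kinase C, changed by 0.83 ± 0.14. All 3 had their ATRA arrays above every DMSO array.

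**Figure D3:**
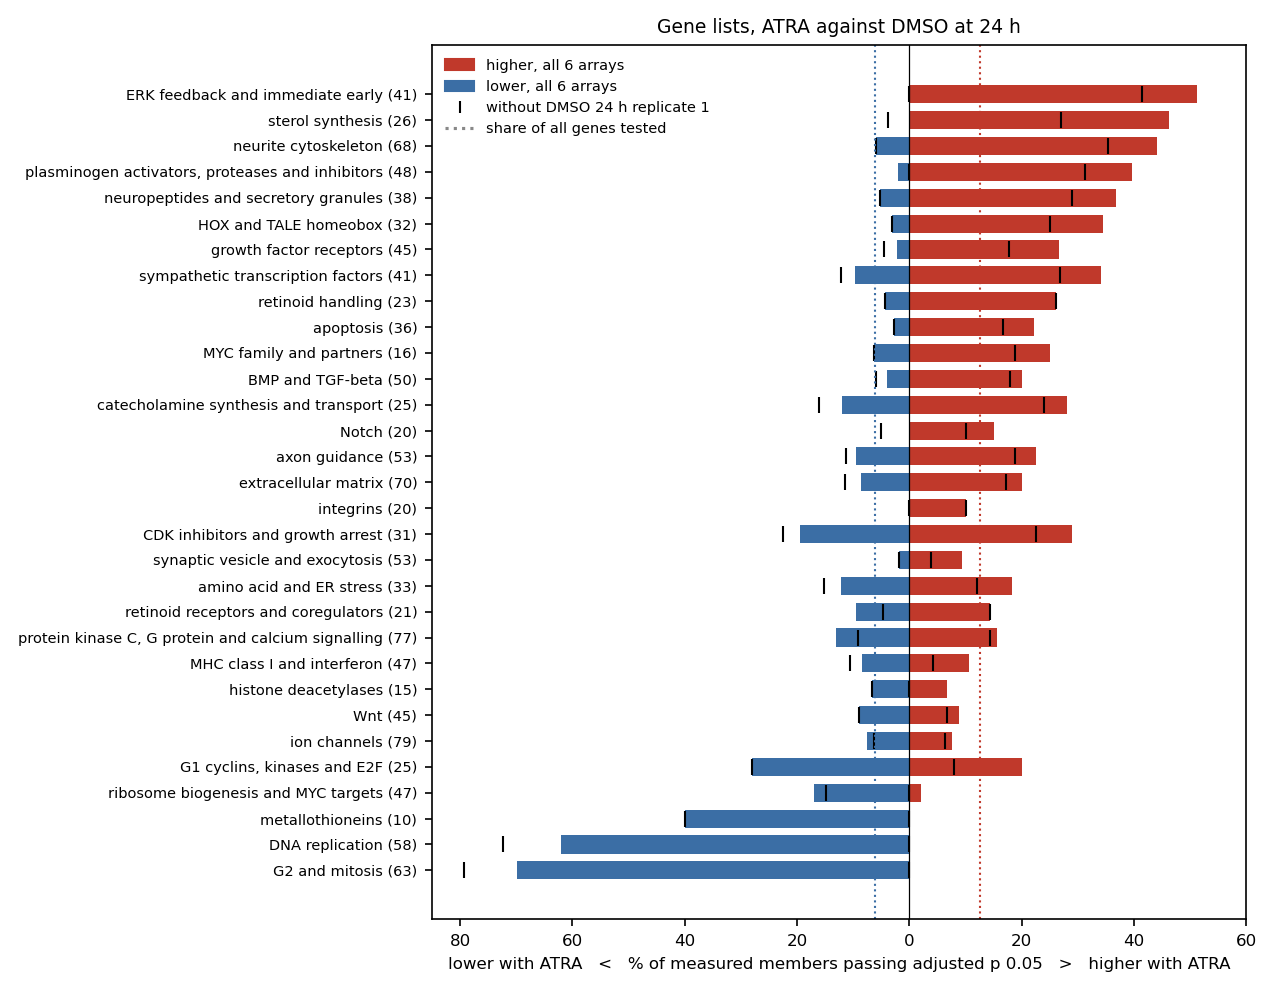
Share of measured members (%) of 31 gene lists that were higher (right) or lower (left) with ATRA at an adjusted p of 0.05. The number of measured members is in brackets, and ticks give the share without DMSO 24 h replicate 1. Dotted lines are the shares over all genes from all arrays, 12.5% and 6.03%. Without that array 850 and 808 of the 11940 genes tested were called, so the lines are no baseline for the ticks. The ERK list lies furthest to the right, and DNA replication and G2 and mitosis furthest to the left.

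Several brakes on the cell cycle rose, though their list moved both ways. CDKN1A, the inhibitor p21 of cyclin-dependent kinases, read 132, 67.8 and 90.8 with DMSO and 409.9, 536 and 483 with ATRA (log2 change 2.33 ± 0.22, adjusted p = 2.5e-09). Among its DMSO arrays replicate 1 was the highest, and without it the change was 2.58. PLK2, a p53-responsive kinase, read 188, 247 and 267 with DMSO and 1529, 1492 and 1355 with ATRA, and DDIT4, an inhibitor of mTOR signalling, read 167, 216 and 217 with DMSO and 477, 536 and 475 with ATRA (1.31 ± 0.12). CCNG2, a cyclin of resting cells, changed by 0.96 ± 0.11 and GADD45A, a stress sensor that slows division, by 0.88 ± 0.09. In all 5 genes the ATRA arrays were the brightest 3. Over the list of 31 inhibitors and growth arrest genes 9 rose and 6 fell, 7 and 7 without DMSO 24 h replicate 1 and 7 and 10 after a second quantile normalization. GAS1, a membrane protein of resting cells, was among the falls (-0.75 ± 0.16, or -0.41 with a pseudocount of 32 and -0.39 by averaging its probe sets). Of 25 G1 cyclins, kinases and E2F factors 5 rose and 7 fell (2 and 7 without that array, and 3 rises without ATRA replicate 1 or 2). E2F1, which turns on S phase genes, read 382, 384 and 368 with DMSO and 239.7, 253 and 223 with ATRA (-0.66 ± 0.12, adjusted p = 8.3e-05), and E2F8, a repressing member, changed by -0.71 ± 0.14. MYBL2, a factor of late G1 and mitotic genes, changed by -0.61 ± 0.13. In these falls all 3 ATRA arrays lay below every DMSO array. TFDP2, a dimer partner of E2F factors, read 511, 567 and 631 with DMSO and 1357, 1130 and 1313 with ATRA (1.15 ± 0.10, adjusted p = 3.1e-10) and E2F5, a repressing member, changed by 0.87 ± 0.16, or 0.49 by averaging its probe sets, so the family did not move as one. The other 3 rises, in CCND1, CDK7 and E2F6, lost their calls without DMSO replicate 1 (adjusted p = 0.26, 0.08 and 0.27), and those of CCND1 and E2F6 were also lost without ATRA replicate 1 or 2, and CCND1 without ATRA replicate 3.

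Genes of DNA replication and of mitosis were lower with ATRA in a broad, shallow shift. Of 58 measured replication genes 0 rose, 36 fell and 22 did not pass, with a median log2 change of -0.36. Of 63 genes of G2 and mitosis 0 rose, 44 fell and 19 did not pass, with a median of -0.39. The falls made up 62.1% and 69.8% of these lists, against 6.03% of all genes. Without DMSO 24 h replicate 1 they numbered 42 and 50, and after a second quantile normalization 44 and 55. Falls over all genes also grew under both settings, from 720 to 808 and 1198. No member of either list changed by 2-fold. CDC7, the kinase that fires replication origins, read 1210, 1311 and 1305 with DMSO and 696, 703 and 666 with ATRA (log2 change -0.89 ± 0.09, adjusted p = 1.5e-08). GINS2, part of the replicative helicase, read 2021, 2272 and 2169 with DMSO and 1417, 1395 and 1334 with ATRA (-0.64 ± 0.08, adjusted p = 4.1e-07). The other leading falls of replication were MCM10 at -0.57 ± 0.14, the flap nuclease FEN1 at -0.56 ± 0.12 and thymidine kinase TK1 at -0.56 ± 0.11. In mitosis the falls were led by NCAPG, a condensin subunit, at -0.69 ± 0.12. KIF11, the motor that pushes spindle poles apart, read 758, 849.6 and 919 with DMSO and 526, 556 and 543 with ATRA (-0.63 ± 0.07, adjusted p = 1.8e-07). TOP2A, which untangles chromosomes, read 3580, 3712 and 3124 with DMSO and 2230, 2211 and 2271 with ATRA (-0.63 ± 0.09, adjusted p = 5.0e-06). NDC80 and SPC25, which join in one complex at the kinetochore, changed by -0.68 ± 0.13 and -0.64 ± 0.11. In each of these 10 genes the ATRA arrays were the lowest 3 of the 6.

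**Figure D4:**
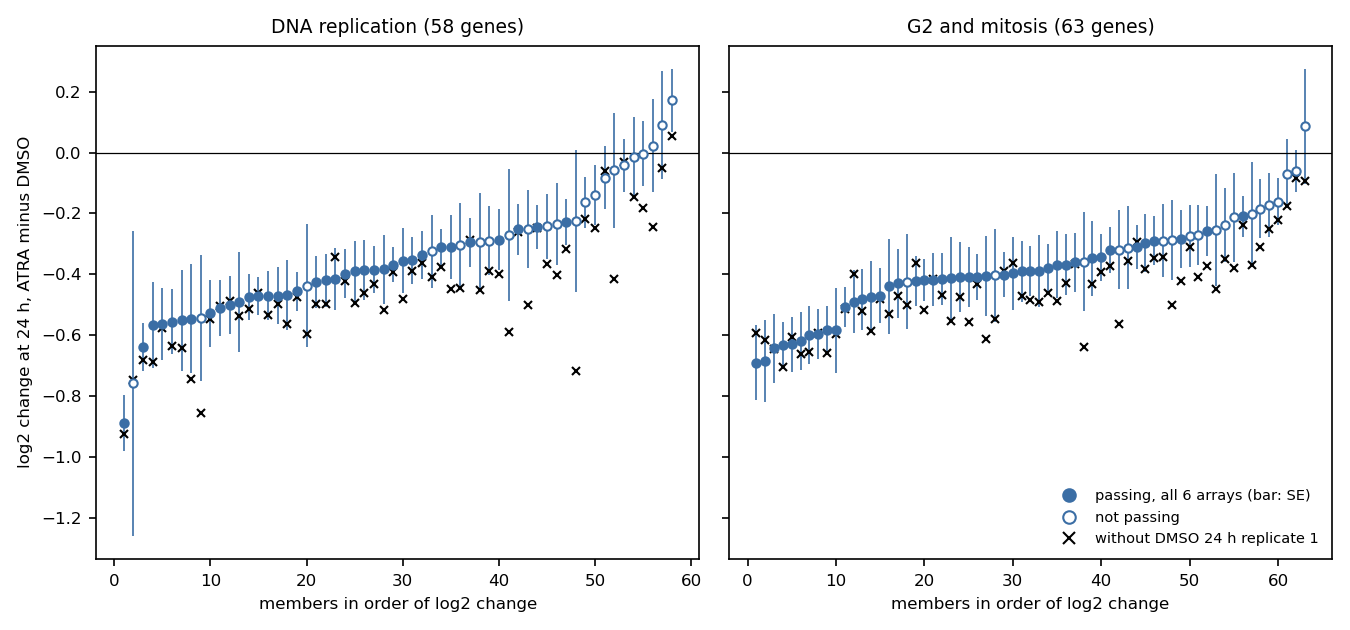
Log2 change at 24 h (ATRA minus DMSO, bars are SE) of every measured member of DNA replication (58 genes) and of G2 and mitosis (63 genes), in order; filled circles passed an adjusted p of 0.05 and crosses are the changes without DMSO 24 h replicate 1. Filled circles (36 and 44) all lie below 0 and none reaches -1.

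Promoters of both cell cycle lists were searched for the elements known from such genes, to show where they lie. A high share comes with the choice of such lists and says nothing on the response to ATRA. The words TTTCCCGC, TTTCGCGC, TTTGGCGC and TTTGCCGC, bound by E2F factors, stood on either strand in 24 of the 69 promoters of measured replication genes, 34.8%, against 3.31% of all 35116 promoters. The cell cycle homology region, TTTGAA on either strand, stood in 40 of the 69 promoters of measured G2 and mitosis genes, 58%, against 15.2% of all. Among promoters of the genes tested the shares were 4.39% for the E2F words and 11.7% for TTTGAA. Among members of the 2 lists that fell they were 39.5% and 62.2%, close to those of all measured members. All promoters come from RefSeq (GRCh38.p14), and the matches describe letters, with no binding measured here. Examples are windows of 120 bases around the start in the strand of the gene, for CDC7 (chr1:91501018-91501137, plus), GINS2 (chr16:85688926-85689045, minus), NCAPG (chr4:17810884-17811003, plus) and KIF11 (chr10:92593042-92593161, plus). Capitals mark the E2F words in the CDC7 and GINS2 lines and the TTTGAA word, or its reverse complement, in the NCAPG and KIF11 lines:
CDC7: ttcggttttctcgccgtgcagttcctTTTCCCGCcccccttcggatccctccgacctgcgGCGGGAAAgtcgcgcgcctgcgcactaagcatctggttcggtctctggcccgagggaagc
GINS2: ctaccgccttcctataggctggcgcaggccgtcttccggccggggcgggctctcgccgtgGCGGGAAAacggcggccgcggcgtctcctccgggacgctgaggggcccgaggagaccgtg
NCAPG: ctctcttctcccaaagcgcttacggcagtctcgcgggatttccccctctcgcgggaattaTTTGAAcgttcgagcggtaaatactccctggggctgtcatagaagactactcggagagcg
KIF11: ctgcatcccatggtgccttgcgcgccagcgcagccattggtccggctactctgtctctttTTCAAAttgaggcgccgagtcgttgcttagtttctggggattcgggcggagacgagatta
CDC7 holds the word at bases 68 to 61 before the start and its reverse complement at bases 34 to 27, and GINS2 holds the reverse complement at bases 31 to 24. The NCAPG word lies at bases 35 to 30 and the KIF11 word, reversed, at bases 28 to 23.

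MYCN, the amplified driver gene of this line, did not pass. It read 6674, 6166 and 7474 with DMSO and 6266, 6166 and 6281 with ATRA (log2 change -0.11 ± 0.07, adjusted p = 0.29), and the groups overlapped. MXI1, which competes with MYC proteins for their partner MAX, read 588, 725 and 771 with DMSO and 1089, 1074 and 1293 with ATRA (0.73 ± 0.10, adjusted p = 1.2e-06). NDRG2 and NDRG4, of a family named after a gene that MYCN represses, changed by 1.28 ± 0.14 and 0.77 ± 0.12, each with its ATRA arrays above every DMSO array; averaging 3 probe sets of NDRG2 gave 0.72. AURKA, a mitotic kinase that stabilises the MYCN protein, changed by -0.49 ± 0.10, or -0.20 by averaging its probe sets. MAX itself had a log2 change of -0.11. The call of MXD4, another competitor, was lost without DMSO 24 h replicate 1 or ATRA replicate 1 or 3 (0.58, and without the first 0.42, adjusted p = 0.17). A joint list of ribosome biogenesis, a main output of MYC proteins, and other MYC targets had 1 rise and 8 falls among 47 genes. That was 2.13% and 17.0%, against 12.5% and 6.03% of all genes, and the median was -0.09. The counts were 0 and 7 without DMSO 24 h replicate 1 and 0 and 12 after a second quantile normalization. Falls numbered 5 without DMSO replicate 2 or 3 or ATRA replicate 1. NOP56, a nucleolar RNA processing factor, read 2513, 2501 and 2584 with DMSO and 1933, 1956 and 1817 with ATRA (-0.41 ± 0.09, adjusted p = 0.0012), and ODC1, which starts polyamine synthesis, changed by -0.37 ± 0.09. In both the ATRA arrays lay below every DMSO array.

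Transcription factors of the sympathetic lineage had 14 rises and 4 falls among 41 (11 and 5 without DMSO 24 h replicate 1). From all arrays that was 34.1% and 9.76%, both above the shares of all genes, 12.5% and 6.03%. Without that array 850 and 808 of the 11940 genes tested were called. PHOX2A, which sets noradrenergic identity, read 1198, 1484 and 1460 with DMSO and 2865, 2712 and 2747 with ATRA (log2 change 1.01 ± 0.09, adjusted p = 1.3e-09). GATA3, another factor of that identity, read 3086, 3987 and 4394 with DMSO and 2197, 2202 and 2350 with ATRA (-0.75 ± 0.11, adjusted p = 5.8e-06). PHOX2A was higher and GATA3 lower in every ATRA array than in any DMSO array. SOX4, a factor of young neurons, read 1717, 2012 and 2348 with DMSO and 4274, 4185 and 4672 with ATRA (1.12 ± 0.10, adjusted p = 9.8e-10), and TLX2, a homeobox factor of the neural crest, changed by 1.02 ± 0.09. DACH1 changed by 1.06 ± 0.13, or 0.57 with a pseudocount of 32, and KLF7, which supports axon growth, by 0.74 ± 0.10. The other falls were LMO4, a cofactor of LIM domains, at -0.72 ± 0.15, the zinc finger gene ZNF536 at -0.67 ± 0.08 and TCF12, a partner of neurogenic factors, at -0.24 ± 0.07. The call of TCF12 was lost without ATRA replicate 1 and by averaging its probe sets (-0.06).

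Of 25 genes of catecholamine synthesis, transport and reception 7 rose and 3 fell (6 and 4 without DMSO 24 h replicate 1, and 6 and 5 after a second quantile normalization). SLC6A2, which takes noradrenaline back into the cell, read 1845, 1891 and 1671 with DMSO and 3567, 3261 and 3136 with ATRA (log2 change 0.88 ± 0.10, adjusted p = 1.1e-07). SLC18A1, which loads amines into vesicles, read 138, 204 and 254 with DMSO and 459, 439 and 465 with ATRA (1.23 ± 0.16). DBH, which makes noradrenaline, read 773, 1012 and 959 with DMSO and 1626, 1279 and 1522 with ATRA (0.69 ± 0.11, adjusted p = 1.3e-05). In these 3 no ATRA array reached down to a DMSO array. TH, the first enzyme of the path, read 73.7, 205 and 177 with DMSO and 268, 167 and 258 with ATRA, and its groups overlapped: the call (0.70 ± 0.23) was lost without DMSO replicate 1 (0.24, adjusted p = 0.45), without ATRA replicate 1 or 3, and after a second quantile normalization. DDC changed by 0.37 ± 0.07, PNMT by 0.67 ± 0.15 (0.43 with a pseudocount of 32) and GCH1, which makes the cofactor of TH, by 0.65 ± 0.08. ADRA2A and ADRA2C, the receptors through which noradrenaline limits its own release, moved the other way. ADRA2C read 372, 319 and 336 with DMSO and 183, 164 and 161 with ATRA (-1.01 ± 0.12, adjusted p = 3.8e-07), and ADRA2A read 43.1, 60.3 and 59.5 with DMSO and 23.8, 28.1 and 18.2 with ATRA (-1.19 ± 0.14, or -0.64 with a pseudocount of 32), both without overlap. The call of DRD2, a dopamine receptor, was lost without DMSO replicate 1 or ATRA replicate 3 (-0.36, and without the first -0.25, adjusted p = 0.17).

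Neuropeptides and their secretory granules had 14 rises and 2 falls among 38 genes (11 and 2 without DMSO 24 h replicate 1), with a median of 0.16. GAL, the peptide galanin, read 448, 532 and 577 with DMSO and 1481, 1421 and 1507 with ATRA (log2 change 1.51 ± 0.08, adjusted p = 7.3e-15). CRH, corticotropin-releasing hormone, read 3301, 3558 and 3532 with DMSO and 7325, 7586 and 7426 with ATRA (1.10 ± 0.06, adjusted p = 2.0e-14). CALCB, a calcitonin gene-related peptide, read 31.2, 27.2 and 25.6 with DMSO and 125, 113 and 112 with ATRA (2.03 ± 0.11, adjusted p = 1.2e-14, or 1.31 with a pseudocount of 32). None of these overlapped between groups. SCG5, a chaperone of prohormone processing, changed by 1.56 ± 0.13 and VGF, a granule protein, by 1.49 ± 0.13. GDF15, a stress-induced secreted factor, changed by 1.81 ± 0.14, or 1.07 with that pseudocount and 0.85 by averaging its 2 probe sets; its probe set and that of VGF can share signal with similar sequences, so both are uncertain. CHGA, the granule protein chromogranin A, went down, at 7431, 8137 and 8185 with DMSO and 5631, 5179 and 5419 with ATRA (-0.55 ± 0.09, adjusted p = 2.3e-05), and so did CPE, which trims peptide hormones (-0.38 ± 0.10). The call of CPE was lost without DMSO replicate 2 or ATRA replicate 1 and by averaging its probe sets (-0.16).

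Cytoskeletal and adhesion genes of neurites rose in 30 of 68 and fell in 4 (24 and 4 without DMSO 24 h replicate 1, 28 and 5 after a second quantile normalization), with a median of 0.21. DCLK1, a kinase that binds microtubules, read 73.7, 58.1 and 56.9 with DMSO and 219, 215 and 204 with ATRA (log2 change 1.75 ± 0.08, adjusted p = 4.6e-16). DPYSL3, which acts in growth cones, read 350.9, 404 and 402 with DMSO and 1247, 1267 and 1158 with ATRA (1.67 ± 0.09, adjusted p = 1.9e-14). ELAVL4, a neuronal RNA-binding protein, read 1375, 1731 and 1716 with DMSO and 4393, 4096 and 4436 with ATRA (1.43 ± 0.10, adjusted p = 1.1e-12). All 3 were fully separate between groups. TPPP3 and CLIP3, which both bind microtubules, changed by 1.54 ± 0.13 and 1.44 ± 0.15, and DPYSL4 by 1.25 ± 0.15, or 0.46 by averaging 3 probe sets. DCX, the microtubule protein of migrating neurons, read 230.4, 208 and 266 with DMSO and 402, 454 and 409 with ATRA (0.85 ± 0.12, adjusted p = 3.6e-06). The 4 falls were in the axonal proteins MAPT, the tau protein (-0.56 ± 0.14), NEFH (-0.49 ± 0.11) and NEFL (-0.28 ± 0.07), both neurofilament chains, and GAP43 of growth cones (-0.28 ± 0.06). GAP43 read 1989, 1986 and 1976 with DMSO and 1579, 1678 and 1653 with ATRA, so the change was small and the replicates were tight. The calls of GAP43 and NEFL were lost by averaging their probe sets (-0.22 and -0.11), and MAPT changed by -0.29 when averaged so.

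Synaptic vesicle genes and ion channels were near the background. Of 53 vesicle and synapse genes 5 rose and 1 fell (2 and 1 without DMSO 24 h replicate 1, 5 and 5 after a second quantile normalization). SYT11, a vesicle membrane protein, read 429.5, 441 and 567 with DMSO and 1080, 1006 and 1142 with ATRA (log2 change 1.17 ± 0.11, adjusted p = 2.5e-09), while RPH3A, an effector of the vesicle GTPase RAB3A, read 349, 349 and 364 with DMSO and 133, 133 and 148 with ATRA (-1.35 ± 0.13, adjusted p = 1.9e-09). The groups of each were separate, in opposite directions. SYT5 changed by 0.89 ± 0.17 (0.53 with a pseudocount of 32), and the rises of SYN1, BIN1 and DLG4 lost their calls without DMSO replicate 1 (adjusted p = 0.07, 0.078 and 0.24), DLG4 also without ATRA replicate 1 or 2 and by averaging its probe sets. Of 79 ion channel genes 6 rose and 6 fell (5 and 5 without that array, and 3 falls without ATRA replicate 1). CHRNA3, a nicotinic receptor subunit of sympathetic neurons, read 2332, 2411 and 2355 with DMSO and 3528, 3317 and 3515 with ATRA (0.55 ± 0.06, adjusted p = 6.9e-08). SCN3A, a sodium channel of young neurons, changed by 1.11 ± 0.14, or 0.68 with a pseudocount of 32.

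Axon guidance genes had 12 rises and 5 falls among 53 (10 and 6 without DMSO 24 h replicate 1). Their shares from all arrays were 22.6% and 9.43%, against 12.5% and 6.03% of all genes. RND3, a GTPase that loosens actin fibres, read 253, 279.7 and 339 with DMSO and 929.7, 946 and 982 with ATRA (log2 change 1.72 ± 0.10, adjusted p = 1.2e-13). EFNB2, a membrane-bound ephrin ligand, read 302, 324 and 359.5 with DMSO and 764, 742 and 775 with ATRA (1.21 ± 0.09, adjusted p = 2.6e-11). Both were separate between groups. SEMA4C, a membrane semaphorin, changed by 1.03 ± 0.16. SEMA3F, a secreted and repelling semaphorin, read 266, 329.9 and 259.8 with DMSO and 109, 163 and 97.6 with ATRA (-1.23 ± 0.15, adjusted p = 3.0e-07, or -0.54 by averaging 3 probe sets), and CXCL12, a chemokine, changed by -0.82 ± 0.16. PLXNA1 and NRP1, which receive semaphorins, changed by -0.75 ± 0.12 and -0.46 ± 0.10, and FLRT3 by -0.53 ± 0.13.

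Genes of the cell surroundings changed in single members. Of 70 matrix genes 14 rose and 6 fell (12 and 8 without DMSO 24 h replicate 1, and 14 and 10 after a second quantile normalization). FN1, fibronectin, read 159, 219 and 216 with DMSO and 1080, 1116 and 1185 with ATRA (log2 change 2.52 ± 0.11, adjusted p = 9.1e-17), or 1.67 by averaging 6 probe sets; the brightest can share signal with similar sequences. FBN1, fibrillin of elastic fibres, read 370.3, 310.1 and 392.2 with DMSO and 131, 134 and 139 with ATRA (-1.39 ± 0.15, adjusted p = 5.6e-08, or -0.85 by averaging its 2 probe sets). COL1A1, a chain of type I collagen, read 27.6, 31.6 and 17.3 with DMSO and 122, 138 and 126 with ATRA (2.33 ± 0.18, but 0.69 by averaging 4 probe sets and 1.49 with a pseudocount of 32). None of these 3 overlapped between groups. MGP, an inhibitor of calcification, changed by 1.28 ± 0.13. The summed level of 16 mesenchymal markers, FN1 and COL1A1 among them, was 7559 to 8787 in the DMSO arrays and 9585 to 10401 in the ATRA arrays. FN1 alone averaged 197.9 with DMSO and 1127 with ATRA, so part of that difference is FN1 itself. The sum was not recomputed without these genes, and its part in these changes was not tested. Of 20 integrin subunits 2 rose, which is 10.0% against 12.5% of all genes, so the list did not stand out. ITGA6, a laminin receptor chain, read 115, 110.5 and 121 with DMSO and 203, 231 and 219 with ATRA (0.91 ± 0.10, adjusted p = 2.5e-08), and ITGB1 changed by 0.44 ± 0.07, or 0.18 by averaging its probe sets.

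Plasminogen activators, proteases and their inhibitors rose in 19 of 48 and fell in 1 (15 and 0 without DMSO 24 h replicate 1, 16 and 1 after a second quantile normalization), with a median of 0.23. PRSS12, a synaptic protease that cleaves agrin, read 50.8, 59.5 and 68.8 with DMSO and 597, 502 and 743 with ATRA (log2 change 3.33 ± 0.14, adjusted p = 4.8e-17). PLAT, tissue plasminogen activator, read 299.9, 219 and 253 with DMSO and 1385, 1262 and 1394 with ATRA (2.39 ± 0.10, adjusted p = 6.6e-17). CTSB, a lysosomal protease, read 2862, 2950 and 3036 with DMSO and 8198, 8301 and 7948 with ATRA (1.47 ± 0.07, adjusted p = 9.6e-16). In all 3 the lowest ATRA array was more than 2 times the highest DMSO array. TGM2, a transglutaminase long known as a retinoid target, read 39.4, 29.1 and 51.2 with DMSO and 79.6, 93.6 and 111 with ATRA (1.25 ± 0.16, or 0.82 with a pseudocount of 32 and 0.61 by averaging 4 probe sets). SERPINB9 changed by 1.80 ± 0.17 and MMP11 by 1.65 ± 0.17, or 0.95 and 0.73 by averaging their probe sets. ADAM9, the 1 fall, lost its call without DMSO replicate 1 (-0.26, then -0.23, adjusted p = 0.13), DMSO replicate 2 or any single ATRA replicate.

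Of 50 genes of BMP and TGF-beta signalling 10 rose and 2 fell (9 and 3 without DMSO 24 h replicate 1). LTBP3, which stores latent TGF-beta in the matrix, read 26.7, 37.0 and 36.7 with DMSO and 181, 132 and 174 with ATRA (log2 change 2.25 ± 0.13, adjusted p = 2.3e-14). TGFB1, the ligand, read 34.0, 110.5 and 119 with DMSO and 263, 209.5 and 319 with ATRA (1.75 ± 0.27, adjusted p = 1.3e-05). SMAD3, which carries the signal to the nucleus, read 105, 123 and 138 with DMSO and 301, 289 and 392.1 with ATRA (1.41 ± 0.13, adjusted p = 1.3e-09, or 0.84 by averaging 4 probe sets). In each the groups were separate. DMSO replicate 1 of TGFB1 was far below its group mates, and without it the change was 1.17, or 1.03 by averaging 2 probe sets. ACVR1B, an activin receptor, and SMAD6, an inhibitory SMAD, were the falls, at -0.57 ± 0.07 and -0.35 ± 0.09, or -0.31 and -0.18 by averaging their probe sets, where SMAD6 did not pass. The Wnt list had 4 rises and 4 falls among 45 genes (3 and 4 without that array), or 8.89% each way against 12.5% and 6.03%. FZD7, a Wnt receptor, read 62.3, 104 and 98.8 with DMSO and 487, 536 and 521 with ATRA (2.56 ± 0.13, adjusted p = 2.9e-15) and DKK1, a secreted Wnt inhibitor, read 1121, 1283 and 1436 with DMSO and 3215, 2880 and 3249 with ATRA (1.29 ± 0.10, adjusted p = 6.1e-11). SFRP1, another secreted inhibitor, fell, at 1585, 1747 and 1833 with DMSO and 683, 619 and 702 with ATRA (-1.36 ± 0.08, adjusted p = 1.2e-13). TLE3 and TLE1, corepressors of one family, went apart, by 1.28 ± 0.15 and -1.01 ± 0.11, or -0.62 for TLE1 by averaging 4 probe sets. All 5 had separate groups. FZD1 changed by -0.48 ± 0.13, or -0.28 by averaging its probe sets, a call lost without ATRA replicate 1. TLE2 and TCF7L2 lost their calls without DMSO replicate 1 (adjusted p = 0.17 and 0.1) or ATRA replicate 3, and TCF7L2 also without DMSO replicate 2 or ATRA replicate 1. Of 20 Notch genes 3 rose and 0 fell (2 and 1 without that array); HEY1, a Notch target, read 2766, 2223 and 2125 with DMSO and 3643, 3944 and 3425 with ATRA (0.64 ± 0.11, adjusted p = 1.2e-04), NUMB, a Notch inhibitor, changed by 0.82 ± 0.17 (0.50 without that array), and the call of RFNG was lost without that array (adjusted p = 0.26) or any single ATRA replicate.

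Sterol and fatty acid synthesis genes rose in 12 of 26 and fell in 0, with a median of 0.30. Without DMSO 24 h replicate 1 there were 7 rises and 1 fall, and after a second quantile normalization 8 and 1. HMGCS1, an early enzyme of the path, read 1113, 1048 and 1121 with DMSO and 1412, 1616 and 1435 with ATRA (log2 change 0.44 ± 0.10, adjusted p = 0.0026, or 0.72 by averaging its 3 probe sets). DHCR7, its last enzyme, read 84.8, 144 and 168 with DMSO and 292, 199.8 and 289 with ATRA (1.01 ± 0.19, adjusted p = 1.8e-04), and SREBF1, a regulator of lipid genes, changed by 0.89 ± 0.16. In these 3 the ATRA arrays were the highest 3. DMSO replicate 1 was the lowest array of DHCR7, and the change was 0.72 without it.

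Several stress and immune lists were mixed. Metallothioneins, which bind metals, had 0 rises and 4 falls among 10 genes with or without DMSO 24 h replicate 1. MT2A read 425, 474 and 419.7 with DMSO and 220.3, 311 and 207 with ATRA (log2 change -0.86 ± 0.14, adjusted p = 2.2e-05) and MT1X changed by -0.84 ± 0.16, both without overlap. MT1E changed by -0.61 ± 0.17 and MT1H by -0.48 ± 0.12, or -0.35 and -0.28 with a pseudocount of 32, and the call of MT1E was lost without ATRA replicate 3. The probe sets of this family can share signal, so single members are uncertain. Amino acid and ER stress genes had 6 rises and 4 falls among 33 (4 and 5 without that array, and 10 rises without DMSO replicate 3); the ER chaperone HSPA5 read 3686, 4186 and 4565 with DMSO and 6134, 5336 and 6293 with ATRA (0.52 ± 0.09, adjusted p = 1.0e-04), and EDEM1, which marks misfolded proteins for disposal, changed by 0.86 ± 0.12. The 4 falls of that list were CEBPB (-0.41 ± 0.09), MTHFD2 (-0.38 ± 0.08), PSPH (-0.36 ± 0.12) and SHMT2 (-0.32 ± 0.09), of which PSPH, MTHFD2 and SHMT2 are enzymes of serine and one-carbon metabolism. The calls of PSPH and SHMT2 were lost without DMSO replicate 3 or ATRA replicate 1 or 3, and PSPH also without DMSO replicate 2. Of 36 apoptosis genes 8 rose and 1 fell (6 and 1 without that array, and 4 and 1 after a second quantile normalization). BCL2, which protects mitochondria, read 146, 181 and 189.9 with DMSO and 526, 543 and 468 with ATRA (1.57 ± 0.12, adjusted p = 4.5e-11, but 0.55 by averaging 4 probe sets), and DIABLO, which frees caspases, changed by 0.82 ± 0.08; BIRC5, the 1 fall (-0.39 ± 0.10), acts in mitosis as well. MHC class I and interferon genes had 5 rises and 4 falls among 47 (2 and 5 without DMSO replicate 1, 3 and 5 after that normalization, and 2 or 3 rises without any single ATRA replicate). From all arrays that was 10.6% and 8.51%, against 12.5% and 6.03% of all genes. IRF9, the DNA-binding part of the interferon-activated complex, read 152, 130.2 and 164 with DMSO and 528, 494 and 566 with ATRA (1.83 ± 0.13, adjusted p = 1.2e-11), whereas OAS3, an interferon-induced enzyme, read 350.8, 639 and 592 with DMSO and 324, 273 and 389 with ATRA (-0.65 ± 0.16), so its groups overlapped in DMSO replicate 1. TAPBP of antigen loading changed by 0.53 ± 0.11, or 0.24, not passing, by averaging its probe sets. IFI30 changed by -0.47 ± 0.12 and IFITM1 by -0.36 ± 0.12, the latter a call lost without DMSO replicate 2 or any single ATRA replicate, while STAT3, IRF3, HLA-B and TAP2 lost their calls without DMSO replicate 1 (adjusted p = 0.42, 0.2, 0.33 and 0.4) and without ATRA replicate 2. STAT3 and IRF3 also lost them without either other ATRA replicate, IRF3 without DMSO replicate 2, HLA-B without ATRA replicate 1 and TAP2 without ATRA replicate 3. Among 15 histone deacetylases HDAC9 fell, at 532, 444 and 441 with DMSO and 207, 215 and 192 with ATRA (-1.20 ± 0.11, adjusted p = 1.3e-09), and HDAC2 changed by 0.21, a call lost without DMSO replicate 1 (adjusted p = 0.3) and without ATRA replicate 1 or 3.

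The ATRA effects at 6 h, 24 h and 72 h share no arrays, so they were set against each other in the same fit. DMSO at 72 h has 2 arrays. Of the 1493 rises at 24 h 111 (7.43%) were rises at 6 h, which made up 90.2% of the 123 rises there (1.03% of the genes tested). Of the 720 falls 35 (4.86%) were among the 70 falls at 6 h (0.586%). Without DMSO 24 h replicate 1 the shares of the 24 h calls were 14.7% of 850 rises and 4.95% of 808 falls. The effect at 24 h differed from that at 6 h in 727 genes, 6.09% of those tested, 549 upward and 178 downward. Without DMSO 24 h replicate 1 the counts were 381 and 237, without DMSO 24 h replicate 3 the upward count was 890, and after a second quantile normalization the downward count was 335. CYP26B1 had a log2 change of 0.38 ± 0.14 at 6 h and 3.75 ± 0.14 at 24 h, a difference of 3.37 ± 0.19 (adjusted p = 1.3e-12). PRSS12 had 0.15 ± 0.14 at 6 h, so its rise lay almost wholly after 6 h (difference 3.18 ± 0.20, adjusted p = 7.9e-12). HTR2B, with 1.66 ± 0.14 at 6 h, and CRABP2, with 1.62 ± 0.17, had begun by 6 h and rose further. KCTD12 went from -1.10 ± 0.10 to -2.79 ± 0.10, and FBN1 from -0.02 ± 0.15 to -1.39 ± 0.15. In the cell cycle lists 0 of 58 and 0 of 63 members passed at 6 h, 36 and 44 fell at 24 h, and the difference was called downward in 20 and 24 (24 and 30 without DMSO 24 h replicate 1). PRKCH, at 3.24 ± 0.13 at 6 h, had the largest part of its rise by then.

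Between 24 h and 72 h the effect differed in 2263 genes, 19.0% of those tested, 462 upward and 1801 downward. These counts moved with single arrays: 362 and 1024 without DMSO 24 h replicate 1, 242 and 1078 without DMSO 72 h replicate 1, 189 and 928 without DMSO 72 h replicate 2, and 306 upward without ATRA 24 h replicate 1 or 3. A second quantile normalization gave 651 and 700, and without the dimmest 33.3% of genes the upward count was 293. Of the 24 h rises 588 (39.4%) were rises at 72 h, and of the 24 h falls 494 (68.6%) were falls at 72 h, where 1277 genes rose, 10.7% of those tested, and 2413 fell, 20.2%. Without DMSO 24 h replicate 1 these shares were 61.1% of 850 and 76.6% of 808. STMN4, which regulates microtubules, read 20.9, 35.9 and 27.3 with DMSO and 39.1, 45.0 and 35.3 with ATRA at 24 h, a change of 0.52 ± 0.17 whose call was lost without DMSO replicate 1 or 3 or ATRA replicate 1 or 2 and with a pseudocount of 32. At 72 h it stood at 4.19 ± 0.19, from a mean of 34.5 with DMSO to 665 with ATRA (difference 3.67 ± 0.25, adjusted p = 5.0e-11). CALCB rose from 2.03 ± 0.11 to 4.65 ± 0.12 and DCX from 0.85 ± 0.12 to 2.54 ± 0.13. In the cell cycle lists 50 of 58 and 57 of 63 members were lower at 72 h. The difference was called downward in 14 and 21, against 1801 of the 11940 genes tested. Without DMSO 24 h replicate 1 it was called in 8 and 6, against 1024 of all genes. No further fall particular to these lists is read from these counts. The 26 sterol genes had 12 rises at 24 h, and 0 rises and 7 falls at 72 h. The difference was called downward in 14 of them (10 without that array). DHCR7 had 1.01 ± 0.19 at 24 h and -0.50 ± 0.21 at 72 h, which did not pass (adjusted p = 0.067), while the difference was called (-1.51 ± 0.28, adjusted p = 6.5e-04). RIT1 went from 1.12 ± 0.16 to -0.42 ± 0.18 (difference -1.54 ± 0.25), and its 72 h value did not pass either (adjusted p = 0.083). In the 72 h arrays the log2 3' to 5' ratio averaged 1.82 ± 0.17 with ATRA (SD, n = 3) against 1.06 ± 0.17 with DMSO (SD, n = 2), and its part in the differences from 24 h was not tested.

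**Figure D5:**
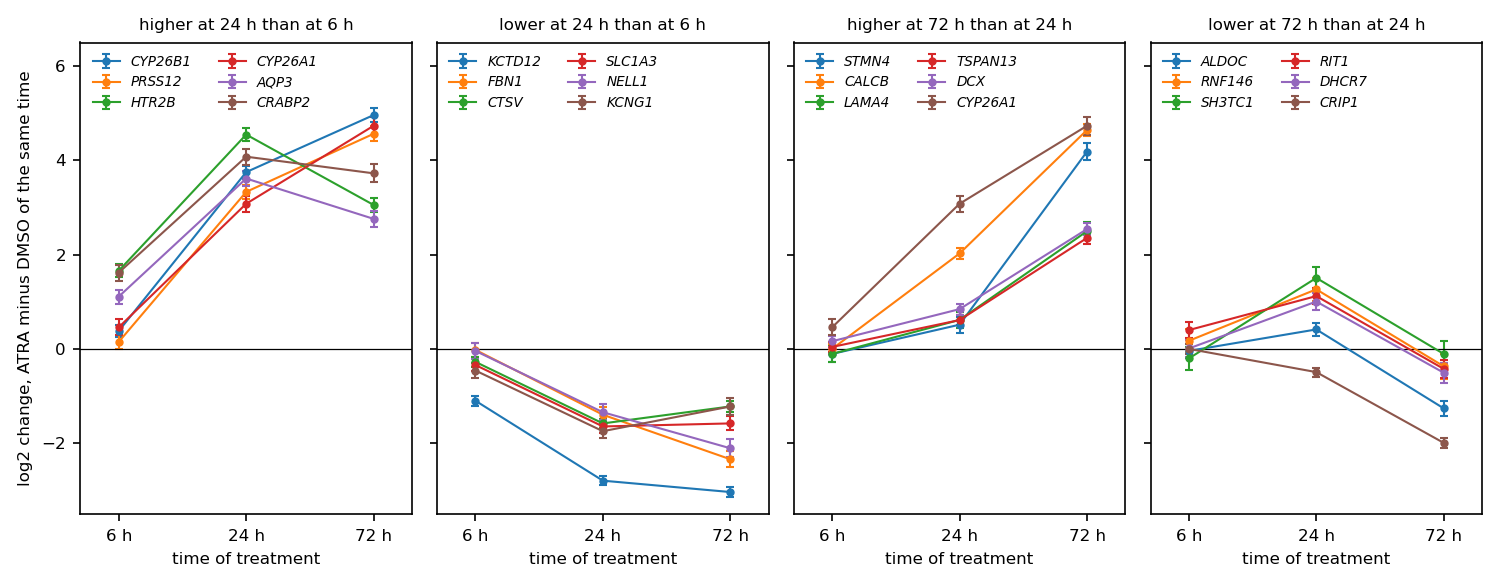
Log2 change of ATRA minus DMSO of the same time at 6 h, 24 h and 72 h (bars are SE), for the 6 genes with the largest called difference in each direction between 6 h and 24 h (left panels) and between 24 h and 72 h (right panels) among those called at 24 h. CYP26B1 and PRSS12 rise after 6 h, STMN4 rises after 24 h, and DHCR7 and RIT1 lie above 0 at 24 h and lower at 72 h, where their changes did not pass.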

How the data were processed

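The authors normalized the arrays with RMA, per the submitters' processing notes, and deposited intensities on a linear scale (9.483 to 26442) for 22930 probe sets. Of these 19415 carried 1 gene symbol in GEO's platform annotation, 125 several and 3292 none; each of 11940 genes was read by the probe set brightest on average over all 35 arrays. The values were taken to log2(intensity + 1) and fitted with limma 3.58.1 in R 4.3.3 as 12 group means over all arrays, which share one estimate of spread (23 residual degrees of freedom), with Benjamini-Hochberg adjustment over all genes and a threshold of 0.05. The script was tested on simulated data. The 36 gene lists (1293 measured of 1480 members) and the comparison itself were chosen with earlier results of these data known. Named genes were the 15 largest rises and falls that passed with and without DMSO 24 h replicate 1, did not overlap and had a mean of at least 60 in the brighter group, up to 6 members of each list that passed, any member of 4 families, and the 6 largest differences between times in each direction. Members of counts of 5 or fewer, and markers outside that rule, were named after their values were seen. So were STRA6 and KRT19, which the rule also covers. Arrays give no count, so their number limits the precision. Alternatives were the replicate block, a fit of 6 arrays, a filter on dim genes, the mean of probe sets, a second quantile normalization, other weights, priors and pseudocounts, a 3' to 5' covariate and leaving out each array.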

Additional observations from a re-analysis of the deposited data

Results flagged for a closer look

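The ATRA effect at 24 h differed from that at 6 h in 727 genes by limma's test of the difference. Of the genes called at 24 h the largest such differences downward, as log2 change at 24 h minus that at 6 h, were in KCTD12 (-1.70), FBN1 (-1.38), CTSV (-1.31), SLC1A3 (-1.30), NELL1 (-1.30) and KCNG1 (-1.29). The largest upward were in CYP26B1 (3.37), PRSS12 (3.18), HTR2B (2.89), CYP26A1 (2.62), AQP3 (2.50) and CRABP2 (2.46). Each of these 12 differences passed under every alternative that was run for it.

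The effect at 72 h differed from that at 24 h in 2263 genes. The largest differences downward, as log2 change at 72 h minus that at 24 h, were in the glycolytic enzyme gene ALDOC (-1.67), RNF146 (-1.63), SH3TC1 (-1.61), RIT1 (-1.54), DHCR7 (-1.51) and CRIP1 (-1.50). The largest upward were in STMN4 (3.67), CALCB (2.62), the laminin chain gene LAMA4 (1.88), TSPAN13 (1.74), DCX (1.70) and CYP26A1 (1.65). These 12 differences passed under every alternative that was run. At 24 h alone the calls of ALDOC, LAMA4 and STMN4 were lost without DMSO 24 h replicate 1, where ALDOC went from 0.42 (adjusted p = 0.045) to 0.19 (0.45) and LAMA4 from 0.62 (0.010) to 0.55 (0.053). The 72 h values of RNF146, SH3TC1, RIT1 and DHCR7 did not pass.

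A called reversal between the times was seen in 61 genes that were higher at 24 h and lower at 72 h, and in 13 that were lower at 24 h and higher at 72 h, each with a called difference. Of these 74 genes 22 were also called at 24 h without DMSO 24 h replicate 1. DBH was among them, with a log2 change of 0.69 at 24 h and -0.49 at 72 h. Others, chosen after their values were seen, were the growth factor gene IGF2 (0.82 and -0.49), the channel gene TRPA1 (0.55 and -0.77) and, in the other direction, FAM111A (-0.46 and 0.78). Groups of 3 arrays were too small to test single arrays as outliers.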

How the results depend on the processing

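Among the genes named by the stated rule, no log2 change that passed changed sign under any alternative run. Genes named outside that rule were not part of that check. The balance of calls did turn: falls outnumbered rises after a second quantile normalization (1063 higher) and with estimated array weights (1700 higher), and the median over all genes went from 0.03 to -0.01 without DMSO 24 h replicate 1 and after that normalization. In the list of cyclin-dependent kinase inhibitors 9 rises and 6 falls became 7 and 10 after that normalization, and in the amino acid and ER stress list 6 and 4 became 4 and 6. With the replicate block 2215 genes passed (1499 higher, 716 lower), 2166 of them shared with the 2213 called without it. Among named genes RARB gained its call (adjusted p = 0.034) and ALDOC lost it (0.051). Arrays with the same number did not deviate together (correlations of -0.16, -0.19 and 0.11 for numbers 1 to 3), so the numbers were not taken to pair the samples. A fit of only the 6 arrays, which has fewer samples to estimate the spread, gave 718 genes (500 higher, 218 lower). Estimated array weights gave 3431 (1731 lower). A second quantile normalization gave 1198 lower at 24 h, 335 downward differences between 6 h and 24 h, and 700 between 24 h and 72 h. Without the dimmest 33.3% of genes 293 differences between 24 h and 72 h were upward. The causes were not tested. Leaving out each array in turn gave 1648 to 2685 genes passing, 850 to 1963 higher and 485 to 808 lower. For 24 h against 6 h it gave 381 to 890 upward and 133 to 237 downward, and for 72 h against 24 h 189 to 584 upward and 928 to 2486 downward. Of 263 results for named genes 233 kept their side of the threshold without DMSO 24 h replicate 1, 203 in the fit of 6 arrays, 253 by the mean of probe sets and 259 with a pseudocount of 32. With 3 arrays a group and a median SE of 0.12 on the log2 scale, small changes were not detectable in every gene. Dim genes carry compressed changes, and probe sets of one gene can disagree.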
